A study of Homo sapiens with 8 samples.

Results

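The genes followed were 9 long noncoding RNA genes: NEAT1 and MALAT1, which are retained in the nucleus, and the snoRNA host genes GAS5, SNHG1, SNHG5, SNHG6, SNHG8, SNHG12 and SNHG15. They were chosen by gene symbol, which GENCODE pairs with the Ensembl gene IDs of the tables, and all 9 were found among 35945 genes with a count, of 58735 listed. The RNA came from BEAS-2B, an immortalised line of human bronchial epithelial cells. Cultures were exposed to 1 ppm formaldehyde (FA) or to clean air (CA) for 2 h and left to recover for 6 h. Each RNA pool was sequenced as input (IN) and after pull-down (IP) with an antibody against 8-oxo-7,8-dihydroguanosine (8-oxoG), an oxidised form of guanosine. This gave the groups CA_IN, FA_IN, CA_IP and FA_IP, with 2 libraries each, numbered 1 and 3. The study calls these biological duplicates of 1 cell line, and p-values measure the spread between these samples only.

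NEAT1 is the scaffold of paraspeckles, nuclear bodies built on its long isoform, and MALAT1 lies in nuclear speckles, where splicing factors gather. A snoRNA host gene carries small nucleolar RNAs in its introns. Splicing frees the intron, from which the snoRNA is trimmed, and the exons are joined into a spliced RNA that often reaches ribosomes and is removed by nonsense-mediated decay. Many hosts belong to the class of 5′-terminal oligopyrimidine genes, whose RNAs begin with a run of C and T. The snoRNAs guide chemical modification of other RNAs: C/D box snoRNAs guide methylation of ribose and H/ACA box snoRNAs guide pseudouridylation.

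The first 30 bases of the main isoform are shown for NEAT1, MALAT1 and 6 hosts, as the gene models of GENCODE 44 (GRCh38) give them, so that the 5′ ends of hosts and nuclear RNAs can be set side by side. Capitals mark a run of at least 5 pyrimidines (C or T, sense strand only) that begins within the first 15 bases. Such a run was found in the hosts GAS5, SNHG1, SNHG5, SNHG8 and SNHG12 and in MALAT1, which is no host, and not in NEAT1 or in the host SNHG15. The same search found one in 31.3% of the main isoforms of 19008 genes with at least 10 expected counts in a library. The main isoforms of MALAT1, SNHG5 and SNHG8 have other lengths in GENCODE 44 than in the deposited tables, so their starts there may differ.
NEAT1: ggagttagcgacagggagggatgcgcgcct
MALAT1: aTCCCTgcgcggcgctcgcgagccgcccct
GAS5: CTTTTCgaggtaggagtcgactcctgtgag
SNHG1: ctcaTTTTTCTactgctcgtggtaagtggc
SNHG5: ttttacgtcggCCTTCgcgagcgtctgggc
SNHG8: ggCCTTTCacattcgggaagcgtcgggatt
SNHG12: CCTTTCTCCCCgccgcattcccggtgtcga
SNHG15: agacctgtactccgtactccgtacttcgta

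Of the snoRNAs in these hosts, 5 had enough counts to be tested, and their sequences are shown since their counts are set beside those of their hosts further on. They were read from GRCh38 on the strand of the host. Capitals mark the C box (ATGANGA) and the last CTGA, the D box, in SNORD22, and the ACA box in the others, which are H/ACA box snoRNAs. SNORD22 lies at chr11:62852910-62853035 (minus strand) within SNHG1. SNORA24 lies at chr4:118279190-118279320 (plus strand) within SNHG8. Within SNHG12 lie SNORA16A at chr1:28580920-28581054 and SNORA61 at chr1:28579764-28579893, and within SNHG15 lies SNORA9 at chr7:44985378-44985510, all on the minus strand.
SNORD22: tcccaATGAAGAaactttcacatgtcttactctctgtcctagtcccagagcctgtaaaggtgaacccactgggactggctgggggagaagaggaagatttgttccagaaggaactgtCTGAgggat
SNORA24: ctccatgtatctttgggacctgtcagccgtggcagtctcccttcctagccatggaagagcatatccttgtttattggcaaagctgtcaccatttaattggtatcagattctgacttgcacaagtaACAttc
SNORA16A: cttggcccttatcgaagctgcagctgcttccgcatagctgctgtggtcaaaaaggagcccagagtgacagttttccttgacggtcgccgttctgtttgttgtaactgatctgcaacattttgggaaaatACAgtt
SNORA61: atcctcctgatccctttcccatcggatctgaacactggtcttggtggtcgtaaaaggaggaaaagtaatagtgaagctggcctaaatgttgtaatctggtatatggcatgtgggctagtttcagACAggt
SNORA9: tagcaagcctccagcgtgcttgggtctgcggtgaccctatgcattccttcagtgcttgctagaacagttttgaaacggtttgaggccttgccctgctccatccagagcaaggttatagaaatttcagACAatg

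The input libraries held 26152651 to 45144392 expected counts and the pull-down libraries 16883500 to 23658012. The 9 genes together took 0.325% to 0.398% of the counts in each of the 8 libraries. Replicates correlated across genes at r = 0.983 to 0.989 and libraries of different groups at 0.976 to 0.991, so the groups did not stand apart. The 7 epithelial markers were present, at a summed 977 to 1210 TPM (a share of all transcripts, scaled by length) in input and 2217 to 2849 in pull-down. Of 7 markers of other cell types, 5 stayed under 10 counts in every library, among them PTPRC and SCGB1A1, and the 7 summed to 0.99 to 1.41 TPM in input and 2.18 to 2.83 in pull-down. In bulk RNA, fewer cells that make an RNA and less RNA per cell cannot be told apart.

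Per unit of length, MALAT1 (ENSG00000251562, chr11:65497640-65508073, plus strand) was the highest of the genes in input, at 428 to 438 TPM over the 4 libraries. GAS5 (ENSG00000234741, chr1:173858559-173868882, minus strand) came next at 136 to 158 TPM. SNHG6 (56.5 to 75.3 TPM), SNHG1 (56.1 to 65.9), SNHG5 (47.8 to 64.0) and SNHG8 (38.8 to 54.8) formed a middle group, in which each range overlapped the next. SNHG15 (12.5 to 15.0 TPM), NEAT1 (9.77 to 15.0) and SNHG12 (11.0 to 12.9) were the lowest and overlapped as well. NEAT1 (ENSG00000245532, chr11:65422774-65445540, plus strand) thus stood low per length, although its count was above that of every host in each library, because its main isoform is 22743 nt long. In pull-down the order began in the same way, with MALAT1 at 700 ± 155 TPM (SD, n = 2) in clean air and GAS5 at 247 ± 12.8. TPM is relative to all other RNAs: the median gene was 0.91 higher in pull-down than in input on the log2 TPM scale (17878 genes), and genes shorter than 200 nt held 12.7% to 18.0% of all TPM in input and 3.16% to 4.51% in pull-down. Differences between fractions are therefore given below in CPM, counts scaled to the library total, here after TMM scaling, under which the median gene differed by 0.01.

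Formaldehyde against clean air in input asks whether the exposure changed the amount of these RNAs 6 h later. None of the 9 genes passed the test. NEAT1 was 0.15 higher on the log2 scale (SE 0.15) and SNHG8 0.23 higher (SE 0.21), the widest differences of the set, while MALAT1 differed by -0.07 and GAS5 by -0.04. Adjusted p-values of the edgeR quasi-likelihood test lay between 0.945 and 0.992. The background was 0.00548% of 18242 genes, a single gene. The count was 0 of 9 also at an unadjusted p under 0.05, where the background was 3.35%, and in DESeq2, where it was 0.0164%. The 95% intervals ran from -0.19 to 0.49 for NEAT1, from -0.36 to 0.23 for MALAT1, from -0.25 to 0.17 for GAS5 and from -0.26 to 0.71 for SNHG8, and each held 0.

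In single libraries, numbers 1 and 3 in turn, NEAT1 stood at 373 and 459 CPM in CA_IN and at 515 and 408 in FA_IN. The groups overlapped, and the highest and the second lowest input value were both from formaldehyde. MALAT1 stood at 3152 and 2703 CPM in CA_IN and at 2882 and 2709 in FA_IN, with both formaldehyde libraries inside the clean air range. GAS5 was at 190 and 213 CPM in CA_IN and at 195 and 196 in FA_IN, again inside it. SNHG1, host of a row of C/D box snoRNAs, was at 199 and 195 CPM in CA_IN and at 203 and 173 in FA_IN. SNHG5 (52.7 and 63.2 against 57.7 and 64.2 CPM), SNHG12 (34.5 and 41.8 against 38.2 and 34.2) and SNHG15 (43.7 and 37.4 against 45.1 and 35.0) overlapped as well. SNHG6 was at 47.2 and 50.3 CPM in CA_IN and at 50.6 and 56.2 in FA_IN, and SNHG8 at 31.9 and 42.3 in CA_IN and at 44.5 and 42.4 in FA_IN. In SNHG6 and SNHG8 both formaldehyde values lay above both clean air values, by a gap far smaller than the spread within a group.

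**Figure D1:**
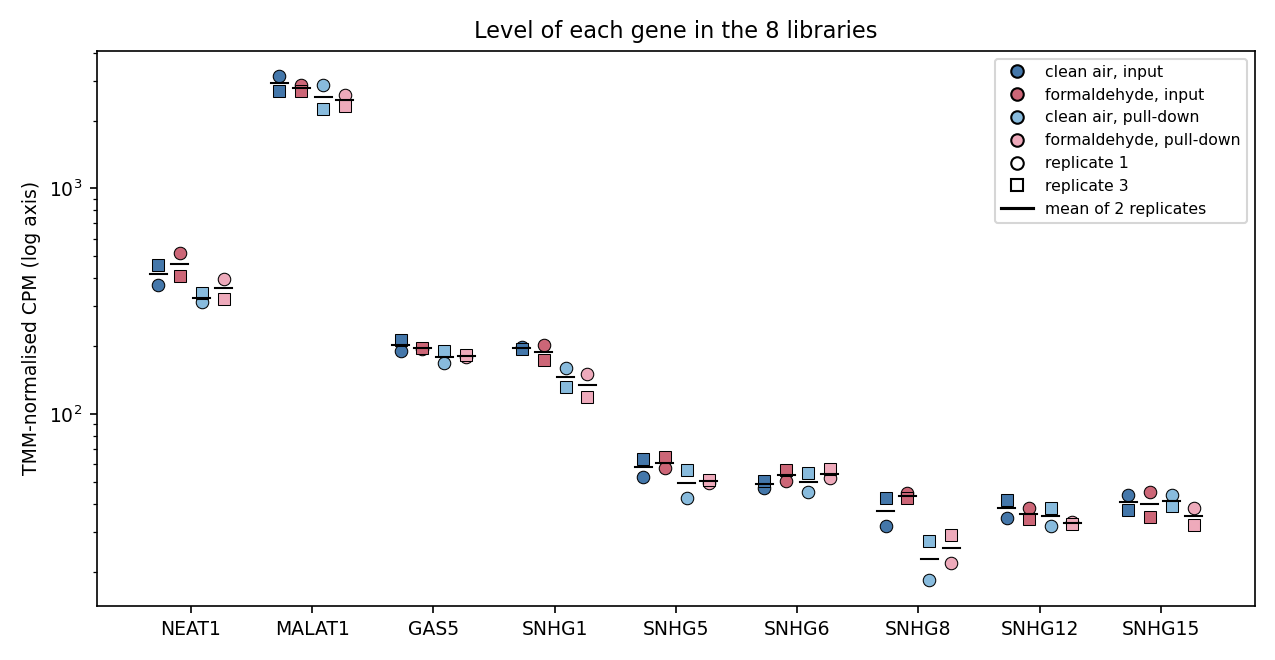
TMM-scaled CPM (log axis) of the 9 genes in each library (points) with the group mean (line), for input and pull-down of clean air and formaldehyde cultures, 2 libraries each. In input the 2 treatments overlap in 7 genes, while SNHG8 and SNHG1 have every pull-down point below every input point.

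Pull-down against input asks which RNAs the anti-8-oxoG antibody left over- or under-represented. SNHG8 and SNHG1 were the members that passed the test over both treatments, and both were lower in pull-down. SNHG8 fell by 0.73 on the log2 scale (SE 0.15, 95% interval -1.08 to -0.38, edgeR adjusted p = 0.0291), which left 0.602 of its input level. SNHG1 fell by 0.46 (SE 0.10, interval -0.68 to -0.24, adjusted p = 0.0312), which left 0.727. No member was higher. NEAT1 was next at -0.35 (SE 0.11, adjusted p = 0.115), then SNHG5 at -0.25 (SE 0.11, 0.250), MALAT1 at -0.19 (SE 0.09, 0.337), GAS5 at -0.14 (SE 0.07, 0.313), SNHG12 at -0.13 (SE 0.10, 0.564), SNHG15 at -0.07 (SE 0.11, 0.805) and SNHG6 at 0.03 (SE 0.09, 0.911). The count of 2 of 9 stood beside 5.19% of all 18242 genes tested, of which 393 were higher and 554 lower, and with 9 members these shares are not precise. At an unadjusted p under 0.05 there were 4 members, beside 17.8% of all genes. DESeq2 called SNHG8 (adjusted p = 5.46e-05), SNHG1 (0.00031) and also NEAT1 (0.0199), all lower. It called 607 of all genes higher and 541 lower.

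SNHG8 (ENSG00000269893, chr4:118278703-118285316, plus strand) was at 18.3 and 27.3 CPM in CA_IP and at 22.0 and 29.1 in FA_IP, below each of its 4 input values given above. Within each RNA pool the pull-down held 0.494 to 0.687 of the input level. SNHG1 (ENSG00000255717, chr11:62851978-62855953, minus strand) was at 160 and 131 CPM in CA_IP and at 150 and 119 in FA_IP, also without overlap with input, and its ratios within pools were 0.674 to 0.802. Each call was lost when any of several libraries was left out, a fit that keeps only 1 library of that group. SNHG8 kept its sign, from -0.60 to -0.89, but lost the call without CA_IN 3 (adjusted p = 0.0972), FA_IN 1 (0.0964), FA_IN 3 (0.119), CA_IP 1 (0.0563), FA_IP 1 (0.106) or FA_IP 3 (0.0536). SNHG1 kept its sign, from -0.38 to -0.55, but lost the call without CA_IN 1 (0.0757), CA_IN 3 (0.0758), FA_IN 1 (0.0901), FA_IN 3 (0.0529), CA_IP 3 (0.104) or FA_IP 3 (0.0914). Scaling by total counts in place of TMM, which moves the median gene to 0.16, kept SNHG8 and gave SNHG1 an adjusted p of 0.0934.

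Input and pull-down came from the same RNA pool, and the pairs were close. The ratio of pull-down to input was under 1 in all 4 pools for NEAT1 (0.748 to 0.839), SNHG5 (0.795 to 0.893), MALAT1 (0.830 to 0.908), GAS5 (0.886 to 0.935) and SNHG12 (0.869 to 0.948), as for SNHG8 and SNHG1. SNHG15 ran from 0.853 to 1.04 and SNHG6 from 0.957 to 1.08. The share of all genes with 4 ratios under 1 is not given here, so these ratios describe the members only. With the pool as a replicate block in edgeR, 6 of the 9 genes were lower and none higher: SNHG8 (adjusted p = 1.3e-08), SNHG1 (1.59e-07), NEAT1 (3.57e-06), SNHG5 (0.000714), MALAT1 (0.000944) and GAS5 (0.0202). SNHG12 (0.0907), SNHG15 (0.383) and SNHG6 (0.767) did not pass. The block called 4587 genes in all, a background of 25.1%, against 947 without it, 61.7% of them higher in pull-down against 41.5%. For GAS5, SNHG12 and SNHG15 the direction depended on the scaling, since total counts gave 0.02, 0.03 and 0.09.

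**Figure D2:**
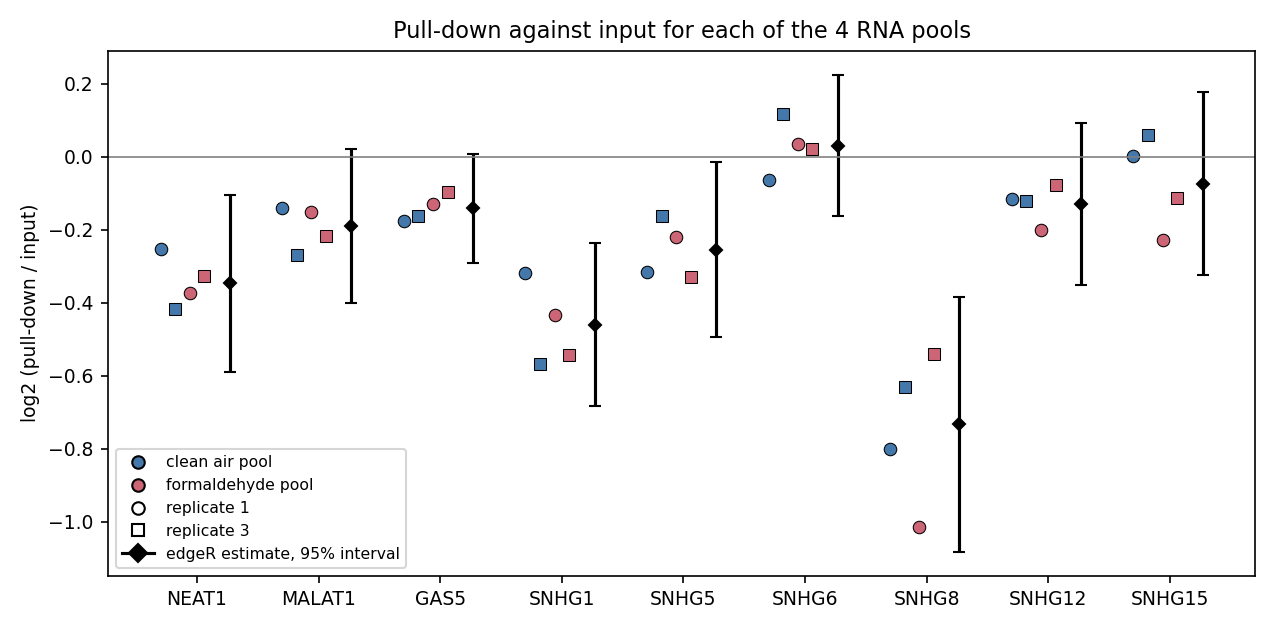
Log2 ratio of pull-down to input CPM within each of the 4 RNA pools (points, clean air and formaldehyde marked apart) for the 9 genes. The 4 points lie below 0 for 7 genes, lowest for SNHG8, and on both sides of 0 for SNHG6 and SNHG15. The share of all genes with 4 points below 0 is not given.

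Taken separately, the treatments gave like values with wider errors. In clean air SNHG8 differed by -0.70 (SE 0.22, edgeR adjusted p = 0.190) and SNHG1 by -0.44 (SE 0.14, 0.206), and in formaldehyde SNHG8 by -0.76 (SE 0.22, 0.225) and SNHG1 by -0.48 (SE 0.14, 0.229). No member passed the test in either treatment, where 1.91% and 1.5% of all genes did. At an unadjusted p under 0.05 there were 2 members in clean air, beside 12.6% of all genes, and 3 in formaldehyde, beside 9.1%. DESeq2 called SNHG8 in each, with backgrounds of 2.77% and 2.13%. With the pool as a replicate block, NEAT1, MALAT1, SNHG1, SNHG5 and SNHG8 were lower in each treatment, where the block called 17.4% of all genes in clean air and 10.1% in formaldehyde. Both comparisons were made against different input libraries and share none.

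Whether formaldehyde changed the pull-down itself is the difference between those 2 contrasts, and none of the 9 genes passed it (edgeR, background 0% of 18242 genes). None reached an unadjusted p under 0.05 (background 1.07%) or was called by DESeq2 (0.0164%). The widest difference was that of SNHG15 at -0.21 (SE 0.22, interval -0.71 to 0.29), and the narrowest interval was that of GAS5, at 0.06 with -0.24 to 0.35. SNHG15, host of SNORA9, was at 43.7 and 39.0 CPM in CA_IP and at 38.5 and 32.3 in FA_IP, with its ratios within pools at 1.00 and 1.04 in clean air and at 0.853 and 0.923 in formaldehyde. NEAT1 differed by -0.01 (interval -0.49 to 0.47) and MALAT1 by 0.02 (-0.41 to 0.44). These intervals reach beyond the sizes of the pull-down differences of NEAT1 and MALAT1 themselves.

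Nuclear-retained and host RNAs did not separate between fractions. The mean log2 CPM of NEAT1 and MALAT1 minus that of the 7 hosts was 4.07 and 3.98 for CA_IN, 4.11 and 3.96 for FA_IN, 4.13 and 3.84 for CA_IP, and 4.16 and 3.93 for FA_IP. Pull-down thus differed from input by -0.01, against an SD of 0.14 between replicates. NEAT1 was at 313 and 343 CPM in CA_IP and at 398 and 325 in FA_IP, and only the highest of these, FA_IP 1, reached into the input range of 373 to 515. MALAT1 was at 2861 and 2243 CPM in CA_IP and at 2593 and 2332 in FA_IP, of which CA_IP 1 alone lay within the input range. Among the hosts the members went from SNHG8 at -0.73 to SNHG6 at 0.03, a range that held both nuclear RNAs.

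SNHG6 (ENSG00000245910, chr8:66920561-66926398, minus strand) was the host least moved, at 45.2 and 54.6 CPM in CA_IP and at 51.9 and 57.1 in FA_IP against 47.2 to 56.2 in input. GAS5 was at 168 and 190 CPM in CA_IP and at 178 and 183 in FA_IP, and SNHG12 at 31.9 and 38.4 in CA_IP and at 33.2 and 32.4 in FA_IP, each overlapping its input values. SNHG5 was at 42.4 and 56.4 CPM in CA_IP and at 49.6 and 51.0 in FA_IP, with CA_IP 3 alone above its lowest input value. Guanine, the base from which 8-oxoG forms, made up 23.0% of the main isoform of SNHG1 in GENCODE 44 and 27.8% of that of SNHG8, the 2 genes called lower, and 29.3% in SNHG5, the highest of the 9. The median over all genes tested was 24.7%.

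Length moved with the pull-down difference across all genes, and the members lay on both sides of that trend. Over both treatments the median log2 difference was -2.58 for 112 genes with a main isoform under 200 nt, of which 77.7% were called lower and which could enter the test through their input counts alone, -0.43 from 200 to under 500 nt, -0.17 from 500 to under 700 nt with 14.5% lower, 0.08 from 1000 to under 2000 nt, 0.05 from 2000 to under 4000 nt with 0.534% lower and -0.04 at 4000 nt or more with 0.257% lower. GAS5 (632 nt, -0.14), SNHG6 (638 nt, 0.03) and SNHG8 (672 nt, -0.73) fell in a class that was low as a whole. The quartiles of that class were -0.58 and 0.11, and SNHG8 lay below the lower. SNHG1 (main isoform 2768 nt, -0.46) and NEAT1 (22743 nt, -0.35) fell in classes that were not low as a whole. With the effective length that the authors' program assigned as an offset, SNHG8 was lower (-0.97) and SNHG5 was now called (-0.56, edgeR adjusted p = 0.0154), while SNHG1, at -0.38, did not pass (adjusted p = 0.0972), and the background was 4.6%. The part of RNA length in these differences was not tested.

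The isoforms of a host did not all have the same value. Across the 9 genes, 32 isoforms held at least 5% of their gene's counts, and all 32 were tested beside 67873 transcripts. In formaldehyde against clean air input and in the difference between treatments none passed (edgeR, background 0% in both), and none reached an unadjusted p under 0.05 (backgrounds 2.8% and 2.92%). None passed in pull-down against input in clean air (background 0.242% of transcripts) or in formaldehyde (0.144%). At an unadjusted p under 0.05 there were 8 in clean air, where the background was 7.06%, and 5 in formaldehyde, where it was 5.95%. Over both treatments 1 passed, SNHG5-202, beside a background of 0.582%. At an unadjusted p under 0.05 there were 11, beside 10.3% of transcripts, and DESeq2 called 7, all lower, beside 3.43%.

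SNHG5-202 (430 nt) had expected counts of 685 and 664 for CA_IN, 460 and 798 for FA_IN, 202 and 167 for CA_IP, and 173 and 297 for FA_IP. It took 28.7% to 35.9% of the gene's counts in input and 14.3% to 23.9% in pull-down, without overlap. It fell by 1.01 on the log2 scale (SE 0.14, edgeR adjusted p = 0.0493), whereas SNHG5-201, the main isoform (1032 nt), was at 0.08 (SE 0.16). The call stood at the limit: it was lost with the pool as a replicate block (adjusted p = 0.0887, tried after the gene results were seen) and without any one library (0.0860 to 0.181). In SNHG8 the values over both treatments were in order of length, none past the edgeR test. SNHG8-201 (672 nt) was at -0.49 (SE 0.18) and SNHG8-204 (570 nt) at -0.95 (SE 0.22). SNHG8-205 (470 nt) was at -1.17 (SE 0.25) and SNHG8-203 (327 nt) at -1.39 (SE 0.30). Neither treatment alone kept that order. In clean air SNHG8-204 was at -1.11 and SNHG8-205 at -0.97. In formaldehyde SNHG8-205 was at -1.37 and SNHG8-203 at -0.96. SNHG6 was not in order of length over both treatments, at 0.01 for SNHG6-203 (638 nt) and 0.04 for SNHG6-205 (302 nt). In SNHG1 the lowest of the isoforms was the main one, SNHG1-209 (2768 nt, with a retained intron), at -0.70 (SE 0.13, adjusted p = 0.122). Its expected counts were 4608 and 3917 for CA_IN, 2547 and 3022 for FA_IN, 1837 and 1223 for CA_IP, and 1220 and 1203 for FA_IP.

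**Figure D3:**
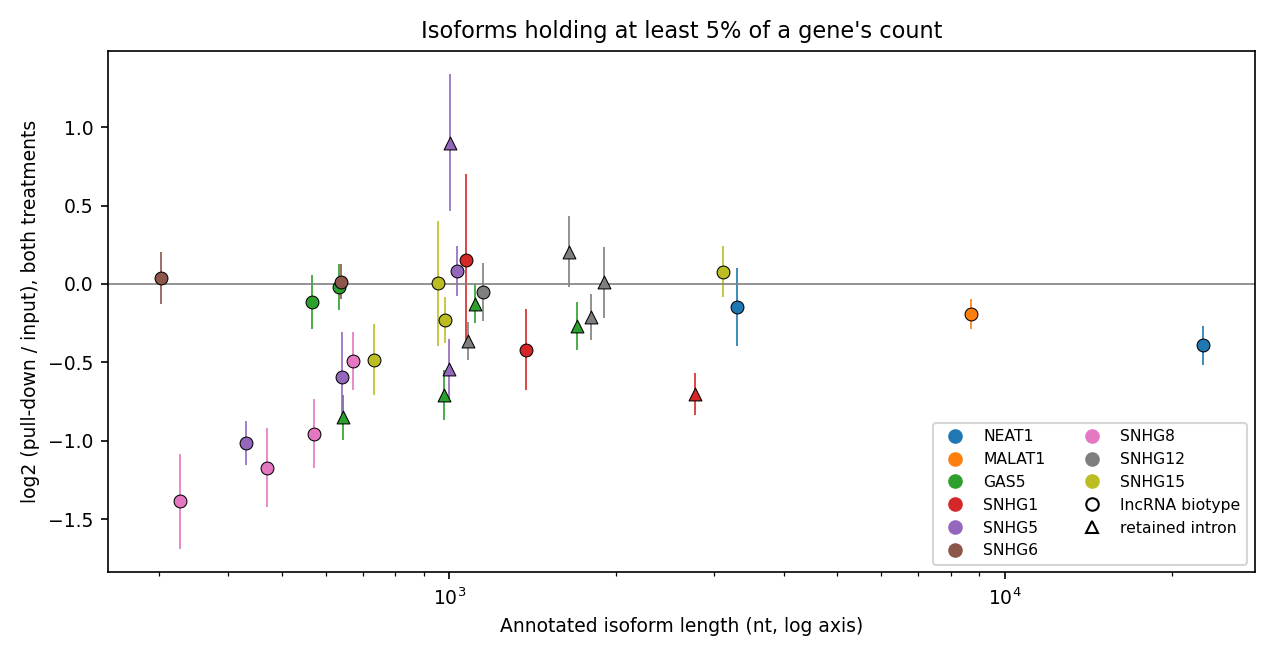
Log2 difference of pull-down against input over both treatments for the 32 isoforms, by isoform length in nt on a log axis, with bars of 1 SE, 1 colour a gene and 1 marker shape an annotation type. The 4 isoforms of SNHG8 lie between -0.49 and -1.39, in order of length here but in neither treatment alone. The 2 of SNHG6 lie near 0, and SNHG1-209 lies at -0.70 among the long isoforms.

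The long form of NEAT1, NEAT1-202 (22743 nt), on which paraspeckles are built, held 91.3% of the gene's counts over the 8 libraries. Weighted by length, as TPM does, its share was 34.9% to 58.0% in single libraries, and the remainder lay in shorter isoforms such as NEAT1-207 (3300 nt). In pull-down against input NEAT1-202 was at -0.39 (SE 0.12, edgeR adjusted p = 0.358) and NEAT1-207 at -0.15 (SE 0.25). The short forms lie within the long one, so reads there are divided by estimate. MALAT1-202 (8708 nt) held 86.6% of the MALAT1 counts but, weighted by length, a far smaller share, given in the last section. It was at -0.19 in pull-down against input (SE 0.10, edgeR adjusted p = 0.587).

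Isoforms with a retained intron made up a large part of several hosts, and in input their share was lower after formaldehyde in GAS5 and SNHG1. In GAS5 they took 51.9% and 48.2% of the counts of CA_IN, 45.0% and 40.9% of FA_IN, 47.4% and 39.5% of CA_IP, and 41.6% and 34.7% of FA_IP. In SNHG1 they took 66.8% and 66.5% of CA_IN, 64.7% and 60.7% of FA_IN, 64.5% and 57.2% of CA_IP, and 58.9% and 54.5% of FA_IP. Input of the 2 treatments did not overlap in either gene, nor when GAS5 was weighted by length (38.05% and 35.6% in CA_IN, 32.6% and 30.1% in FA_IN), while SNHG1 by that weight came to 52.9% and 51.0% against 51.0% and 46.8%. Library 1 had the higher share in all 4 groups of both genes, by 0.324 to 7.96 percentage points. The means of the treatments in input differed by 7.08 points in GAS5, more than its replicates did in input (3.74 and 4.14), and by 3.94 points in SNHG1, where the replicates differed by 0.324 and 3.94. Within libraries of the same fraction and number, the share after formaldehyde was below that in clean air in 4 of 4 pairs of each gene, by -6.88 and -7.28 points in input and -5.82 and -4.78 in pull-down for GAS5, and by -2.13 and -5.75 in input and -5.63 and -2.70 in pull-down for SNHG1. The input and pull-down of a number come from the same RNA, and whether a number marks an exposure run shared by both treatments is not given in the sources used here. These shares had no test, and no single isoform of either gene passed one in formaldehyde against clean air. How many of all genes had a like difference in retained-intron share is not given here. The values therefore describe these genes only, and their link to formaldehyde was not tested. In SNHG12 the share was 81.4% to 87.6% over the 8 libraries. Its input groups overlapped, while both pull-down values after formaldehyde (81.4% and 84.6%) lay below both in clean air (85.0% and 87.6%). In SNHG6 the share was 2.18% to 4.27%. It too was lower after formaldehyde in every same-numbered pair, by -0.69 and -0.61 points in input and -0.28 and -0.77 in pull-down. In SNHG5 these differences were -1.50 and 2.61 points in input and 2.26 and 0.58 in pull-down. SNHG5 held 15.2% to 22.3% in input and 22.5% to 24.7% in pull-down, without overlap.

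**Figure D4:**
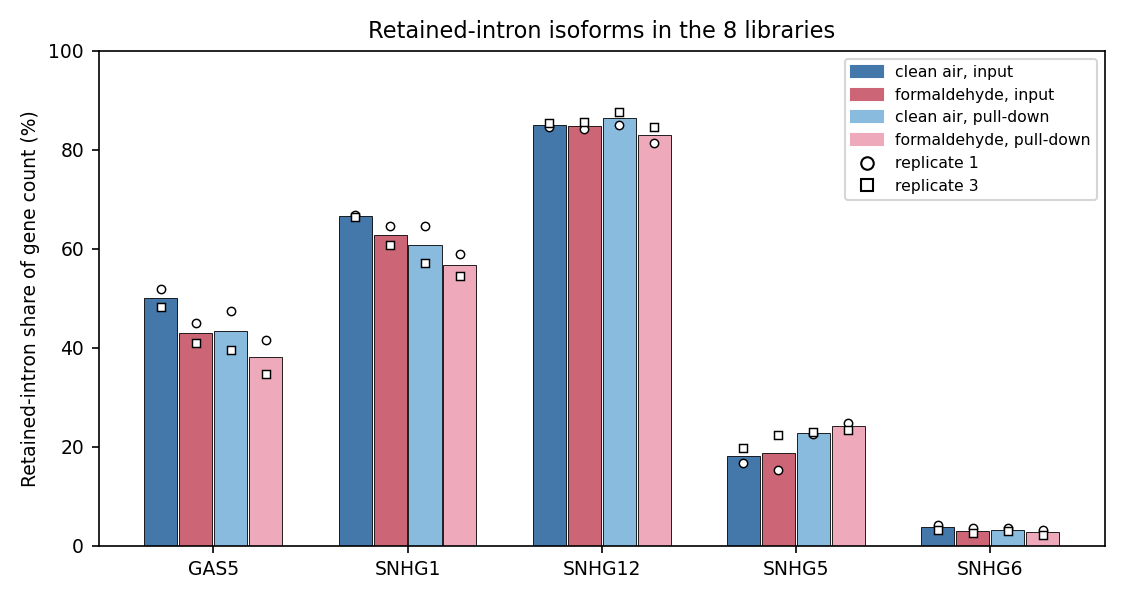
Percent of a host gene's expected counts assigned to isoforms with a retained intron in each library, by group (2 libraries each). GAS5 and SNHG1 are lower in FA_IN than in CA_IN, SNHG12 stays between 81.4% and 87.6%, and SNHG6 stays under 5%.

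The snoRNAs carried by the hosts had few counts. Of 27 snoRNA symbols, 14 were paired with 16 gene IDs, and 5 of these passed the filter of 10 counts in at least 2 libraries. None of the 5 reached 10 counts in any pull-down library, so each entered the test through its input libraries alone. A snoRNA chosen in this way tends to come out lower in pull-down. The fitted values are therefore given without p-values, as a description of these 5. SNORD22 (in SNHG1) had expected counts of 39.1 and 70.9 for CA_IN, 24.8 and 29.8 for FA_IN, 1.04 and 0.27 for CA_IP, and 0.68 and 3.02 for FA_IP. Its fitted log2 difference was -4.49 (SE 0.55). SNORA61 (SNHG12) had 62.1 and 67.2 for CA_IN, 47.2 and 38.1 for FA_IN, 7.14 and 4.62 for CA_IP, and 1.69 and 0 for FA_IP (-3.71, SE 0.45). SNORA9 (SNHG15) was at -4.00 (SE 0.52), SNORA16A (SNHG12) at -3.30 (SE 0.59) and SNORA24 (SNHG8) at -2.67 (SE 0.64). With so few counts the fitted sizes are rough.

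Beside their hosts the fitted values were as follows. SNHG1 was at -0.46 where SNORD22 was at -4.49, SNHG15 at -0.07 where SNORA9 was at -4.00, and SNHG12 at -0.13 where SNORA16A and SNORA61 were at -3.30 and -3.71. The 5 are 126 to 135 nt long, in the length class under 200 nt whose median was -2.58, and these genes as a whole took 0.146% to 0.244% of the counts in input and 0.0223% to 0.0424% in pull-down. The deposited tables give those 5 effective lengths of at most 1.14 to 2.28 nt, and their TPM was not set beside that of the hosts. Reads can be shared between a snoRNA and an isoform of its host that keeps the intron. In formaldehyde against clean air input the fitted values ran from -0.82 to -0.11, and none passed the edgeR test.

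**Figure D5:**
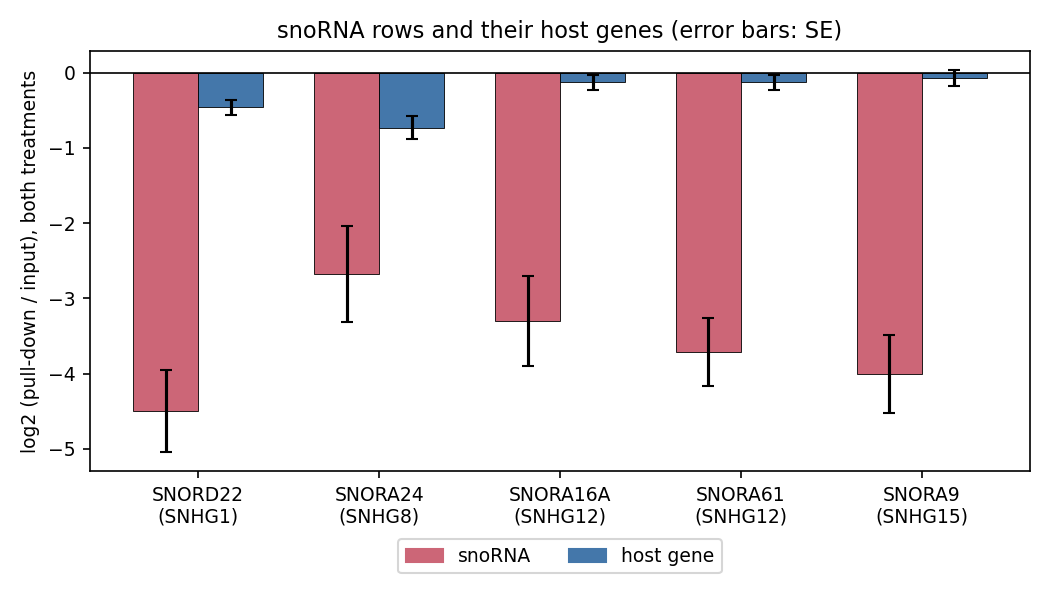
Log2 difference of pull-down against input over both treatments (bars of 1 SE) for host genes and the hosted snoRNAs that passed the count filter, which the snoRNAs did through input alone. The 5 snoRNAs lie between -2.67 and -4.49, and their hosts between -0.73 and -0.07.

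Further genes around these RNAs were counted in lists. Of 18 other snoRNA hosts, 4 were lower in pull-down over both treatments and none higher: SNHG25 (main isoform 278 nt, -1.45, edgeR adjusted p = 0.000635), SNHG9 (275 nt, -1.24, 0.0143), SNHG19 (342 nt, -1.01, 0.00118) and ZFAS1 (566 nt, -0.83, 0.000195), the last named after its value was seen. All 4 had a main isoform under 700 nt. The median of the 18 was -0.05, beside 0.01 for all genes. Of all 18242 genes tested in that contrast, 554 were lower and 393 higher. Of 15 other long noncoding RNAs, 12 were tested and 1 was lower, CYTOR (7512 nt, -0.58, adjusted p = 0.00198), with a median of -0.15. Over other settings on all 8 libraries, 2 to 7 of the other hosts and 1 to 6 of the other long noncoding RNAs were called lower. At most 1 of each list was called higher. The counts of 7 and 6 came with the pool as a replicate block, which called 25.1% of all genes, 1758 of them lower.

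The genes of proteins that act with these RNAs were counted in the same way, beside the same 554 lower and 393 higher of 18242 genes. None of 15 paraspeckle gene IDs passed in pull-down against input over both treatments (median 0.02), with HNRNPK at 0.03 and MATR3, listed under 2 IDs, at -0.05 and -0.23. Of 8 core proteins of snoRNPs, the particles that snoRNAs form, 2 were lower: NOP10 (554 nt), part of the H/ACA particle, at -1.32 (edgeR adjusted p = 6.09e-05) and SNU13 (1458 nt), part of the C/D particle, at -0.33 (0.0230). None of 14 factors of nonsense-mediated decay passed, with a median of 0.06, and the most abundant, RBM8A and EIF4A3, were at 0.19 and 0.21. Other settings gave up to 2 lower and 6 higher of the paraspeckle genes and up to 2 lower and 5 higher of the decay factors. The 6 came with scaling by total counts, where 2562 of 18242 genes were higher and 492 lower. The other maxima came with the pool as a replicate block, where 2829 genes were higher and 1758 lower. In formaldehyde against clean air input no gene of any of these lists passed the edgeR test.

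The genes whose level followed the members most closely over the 8 libraries were found among 5014 genes with a mean log2 CPM of at least 5. For the mean of the 7 hosts they were SCARNA13 (Pearson r = 0.974), SCARNA2 (0.965) and TBC1D23 (0.963), and SCARNA13 and SCARNA2 are small RNAs of Cajal bodies. For NEAT1 they were SNHG3 (0.945), itself a snoRNA host, TSPO (0.903) and SRGAP2 (0.873). For MALAT1 they were ASPM (0.982), KNL1 (0.979) and PURB (0.976). These are the highest of many correlations over libraries that share depth and fraction, and they are given as a description.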

How the data were processed

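The authors trimmed reads with cutadapt, aligned them with STAR 2.6.0a to GRCh38 with Ensembl release 94, and deposited RSEM 1.2.25 isoform tables (versions from the submitters' processing notes), 1 per library, with an expected count for each of 206601 transcripts. Per the file headers, the deposited tables also hold TPM, used here only for levels between genes, and each isoform's percent of its gene, not used for tests. Libraries were made with a small RNA kit and read at 75 bases, and whether counting used strand is not given in the sources used here. The labels name clone 15A3 of the antibody in one field and 2E2 in another. Expected counts were summed by gene and rounded. Genes with at least 10 counts in at least 2 libraries (18242) were fitted over all 8 libraries with edgeR 4.0.16 (quasi-likelihood test, TMM scaling, 4 groups), with Benjamini-Hochberg adjustment over all genes and a limit of 0.05. Transcripts (67873) were fitted in the same way. The common dispersion was 0.0190, a coefficient of variation of 0.138. Depth limits precision through counting error, and 2 libraries a group through the spread.

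Members and gene lists were chosen with earlier results of these data known. Named were all 9 members and, of each list, up to 3 called genes with the widest difference, or the 2 most abundant where none was called. Symbols came from GENCODE 44, which matched 99.1% of the gene IDs with a count. Input and pull-down fractions were split from the same RNA by design. Deviations of same-numbered libraries from their group means correlated at 0.768 in clean air and 0.645 in formaldehyde (11003 genes), and at 0.451 to 0.594 between treatments, for which the sources used here do not say whether a number marks a shared exposure run. The numbers were read from the deposited names of the tables. Alternatives were DESeq2 1.42.0, other scalings and filters, an effective length offset, replicate blocks, separate fits and each library left out. The authors' 3 comparison tables (log2 fold changes and p-values) were not used.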

Additional observations from a re-analysis of the deposited data

How the results depend on the processing

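In formaldehyde against clean air input no member was called under any setting, while the number of genes called went from 1 to 3 in DESeq2, 100 without a filter on low counts, 258 with the replicate number as a block, 0 with the effective length offset, 0 in edgeR on the 4 libraries alone and 0 to 1 with a library left out. The effective length offset turned MALAT1 to 0.049, GAS5 to 0.044 and SNHG15 to 0.067. With a library left out NEAT1 ran from -0.044 to 0.30, MALAT1 from -0.18 to 0.048, GAS5 from -0.12 to 0.035, SNHG1 from -0.20 to 0.020, SNHG5 from -0.053 to 0.20, SNHG12 from -0.21 to 0.058 and SNHG15 from -0.23 to 0.13, so that the sign of these 7 rested on single libraries. Whether same-numbered libraries of different treatments share an exposure run is not given in the sources used here, so that block is an alternative only.

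In pull-down against input in clean air, members called lower numbered 1 in DESeq2, 3 without a filter, 2 with the replicate block, 5 with the block by RNA pool and 1 with the effective length offset. Genes called numbered 349, or 1157 by total counts, 686 without a filter, 1941 with the replicate block, 3178 with the pool block and 194 to 318 with a library left out. The fit without a filter tested 35784 genes, and those by DESeq2, total counts, blocks and the offset 18242. DESeq2 called 2.77% of all genes, and the offset called 13 genes higher and 371 lower. Total counts gave SNHG12 0.027. Without a filter SNHG6 was at -0.0026 and SNHG15 at -0.0060, with a mean count of at least 50 they were at -0.0020 and -0.0073, and the effective length offset gave SNHG15 -0.14. With a library left out SNHG6 ran from -0.11 to 0.16, SNHG12 from -0.26 to 0.014 and SNHG15 from -0.091 to 0.14.

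After formaldehyde, members called lower numbered 1 in DESeq2, 3 without a filter, 2 with the replicate block, 5 with the pool block and 1 in edgeR on 4 libraries. Genes called numbered 274, or 561 by total counts, 578 without a filter, 953 with the replicate block, 1835 with the pool block and 121 to 282 with a library left out. The fit without a filter tested 35784 genes, and those by DESeq2, total counts and blocks 18242. DESeq2 called 2.13% of all genes, and edgeR on 4 libraries called 11 higher and 287 lower of 16920. Total counts gave GAS5 0.057 and SNHG12 0.030, and the effective length offset gave SNHG6 -0.0043. With a library left out SNHG6 ran from -0.036 to 0.12 and SNHG15 from -0.33 to 0.024.

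Over both treatments, members called lower numbered 1 by total counts, 4 without a filter, 5 with the replicate block, 6 with the pool block and 0 to 1 with a library left out. Genes called numbered 947, or 3054 by total counts, 3321 with the replicate block, 4587 with the pool block and 438 to 872 with a library left out, and the share of higher calls went from 41.5% to 83.9% by total counts, 52.9% in DESeq2 and 61.7% with the pool block. Without a filter 513 genes were higher and 779 lower of 35784 tested, while the fits by total counts and blocks tested 18242. DESeq2 called NEAT1, SNHG1 and SNHG8 lower, where 607 genes were higher and 541 lower of 18242. Total counts gave GAS5 0.017, SNHG12 0.029 and SNHG15 0.087. With a library left out SNHG6 ran from -0.041 to 0.096 and SNHG15 from -0.16 to 0.015. SNHG8, SNHG1, NEAT1, SNHG5 and MALAT1 stayed below 0 under every setting tried.

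In the difference between treatments, genes called numbered 0, or 3 in DESeq2, 52 without a filter, 3 with the replicate block, 25 with the pool block and 0 to 5 with a library left out, and SNHG15 ran from -0.34 to 0.018. Of the main isoforms, DESeq2 called 1 over both treatments, where it called 3.43% of all transcripts. It called 1 after formaldehyde, where that share is not given here. Without a filter 1 main isoform was called over both treatments, where 1260 transcripts were called in all. The score of nuclear against host RNAs was 0.074 from TPM and -0.060 to 0.044 with a library left out. As a share of TPM the main isoform held 47.7% in NEAT1, 24.1% in MALAT1, 33.7% in GAS5, 20.6% in SNHG1, 17.7% in SNHG5, 53.4% in SNHG6, 43.1% in SNHG8, 18.4% in SNHG12 and 16.5% in SNHG15. Where a call or sign changed, the cause was not tested. With 2 libraries a group the printed intervals are wide, and the snoRNAs had few counts.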
